A study of Mus musculus with 10 samples.

Results

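The NF-kB family was described here by 10 genes out of the 54337 annotated mouse genes of the libraries. They were chosen by GENCODE M21 gene symbol: the subunits Nfkb1, Nfkb2, Rel, Rela and Relb, the IkB proteins Nfkbia, Nfkbid, Nfkbiz and Nfkbie, and Tnfaip3, which encodes the deubiquitinase A20. All 10 passed the low-count filter of the test. The study asked what forced expression of NFAT factors does to CD8 T cells in a tumour. Mouse CD8 T cells with a T cell receptor for the P1A tumour antigen were activated for 24 h and given a retrovirus. The vector was empty apart from eGFP (eGFP control, 3 libraries), carried NFAT5 (3 libraries) or carried CA-RIT (4 libraries), a constitutively active NFAT1 altered so that it pairs poorly with AP-1. After a further 24 h the cells were transferred into Rag1-/- B10D2 mice, which lack T and B cells of their own and bore P511 mastocytomas, and 7 days later CD8 cells were sorted from the tumours for RNA sequencing. The strain is labelled C57BL/6, and no source used here gives the age of the animals. All groups shared activation, retroviral transduction, transfer and the tumour host.

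NF-kB factors are dimers of Rel-homology proteins that bind kappaB sites in DNA. In resting cells IkB proteins hold the dimers in the cytoplasm. Antigen receptor, CD28 and TNF receptor signals activate the IkB kinase (IKK) complex, which marks IkB for destruction and frees the dimers. In the canonical route p50 (from Nfkb1) pairs with RelA or c-Rel, and in the non-canonical route processing of p100 (from Nfkb2) releases p52 with RelB. Several inhibitors are themselves NF-kB targets and so close a feedback loop. In T cells NFAT, AP-1 and NF-kB act together on cytokine genes.

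Libraries are named by group and by the number in their title, which ran from 1 to 10 across the series. Of the 10, 9 held 18.8 to 36.6 M estimated reads, while eGFP control 7 held 51112 reads over 798 genes. In eGFP control 7 all 10 NF-kB genes had 0 reads, which at this depth allows up to 58.7 CPM (CPM are reads scaled to the same library total on genes, and 3 reads set the limit). CA-RIT NFAT1 10 had 221 CPM summed over 10 CD8 T cell markers, against 27100 to 42200 CPM in 8 libraries, and 5090 CPM over mast cell and P511 markers, against 56.6 to 265 CPM. Group comparisons therefore used 8 libraries: eGFP control 3 and 6, NFAT5 1, 5 and 8, and CA-RIT NFAT1 2, 4 and 9. Among these, eGFP control 3 stood apart, with 13186 genes holding a read against 15276 to 17255 in the other 7. Its 11 dendritic cell and antigen presentation markers summed to 1400 CPM, 8 of the 11 with reads, against 254 CPM in eGFP control 6 and 192 to 332 CPM in the vector libraries. There Cd74, at 565 CPM, was the highest of them, and Xcr1 (8.63 CPM), Flt3 (3.53) and Batf3 (5.72) were above the other 7 libraries, with Xcr1 at 0.887 to 2.7 CPM, Flt3 at 0 to 0.567 and Batf3 at 0.306 to 5.0 in those. Itgax, at 23.7 CPM, was below them (33.8 to 174 CPM). Clec9a, Zbtb46 and Cd209a were at 0 in eGFP control 3 and also in eGFP control 6, Clec9a as in every library. Nfat5 was at 48.0 to 87.0 CPM in the NFAT5 libraries against 1.12 to 10.7 CPM in the other 5 of the 8. Nfatc2, the gene of NFAT1, was at 88.8, 63.5 and 30.0 CPM in CA-RIT NFAT1 2, 4 and 9, 36.6 to 70.0 CPM under NFAT5, and 4.00 and 47.3 CPM in eGFP control 3 and 6. These groups overlapped, so it does not check the CA-RIT labels. Whether each library is a mouse of its own is not in the labels, and the spread behind every p-value may be technical.

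Promoters of Nfkbia and Nfkbid are shown because these inhibitors had the most correlated levels of any pair of members over the libraries. RefSeq start sites on the GRCm38.p6 build were at hand for 7 of the 10 genes (12 promoters, each 250 bases before to 50 after the start), and not for Nfkb1, Relb and Nfkbiz. The first sequence is the 250 bases before the Nfkbia start, chr12:55492648-55492897 on the minus strand, and the second those before the second Nfkbid start, chr7:30422156-30422405 on the plus strand. Capitals mark matches to the kappaB consensus on either strand.
Nfkbia: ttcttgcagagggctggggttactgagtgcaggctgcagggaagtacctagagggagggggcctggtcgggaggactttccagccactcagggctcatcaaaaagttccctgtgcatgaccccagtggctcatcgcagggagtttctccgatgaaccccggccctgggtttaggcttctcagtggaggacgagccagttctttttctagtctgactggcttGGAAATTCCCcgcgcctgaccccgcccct
Nfkbid: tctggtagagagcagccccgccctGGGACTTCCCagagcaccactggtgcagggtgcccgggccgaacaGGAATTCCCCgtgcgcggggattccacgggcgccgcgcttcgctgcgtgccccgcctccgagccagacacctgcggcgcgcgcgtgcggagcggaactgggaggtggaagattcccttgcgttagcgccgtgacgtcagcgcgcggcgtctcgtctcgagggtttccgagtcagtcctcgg

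A kappaB consensus match was found in 6 of the 7 genes with a promoter, in 8 of their 12 promoters and at 13 positions, some overlapping. Rela was the gene with no match in its window. Across all 32851 RefSeq mouse promoters of the same length 8.46% held a match, and across 27025 genes 9.55% did. The NFAT core TGGAAA, searched on both strands, was found in 4 of the 7 genes, against 23.9% of all genes. The windows of 30 bases below show 1 match each for the other genes, with the match in capitals and the strand of the gene. They lie at chr10:19015403-19015432 (minus) for Tnfaip3, chr11:23771042-23771071 (minus) for Rel, chr17:45555584-45555613 (plus) for Nfkbie and chr19:46304688-46304717 (plus) for Nfkb2.
Tnfaip3: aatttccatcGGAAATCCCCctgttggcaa
Rel: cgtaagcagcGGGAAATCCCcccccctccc
Nfkbie: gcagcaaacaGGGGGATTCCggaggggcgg
Nfkb2: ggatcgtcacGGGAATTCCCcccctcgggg
The matches began 12 bases before the RefSeq start site in Tnfaip3, 92 before it in Rel, 106 before it in Nfkbie and 39 before it in Nfkb2. In GENCODE the Tnfaip3 and Nfkb2 genes begin further upstream. There 110 and 250 of the 250 bases before the RefSeq start lie in GENCODE exons. A match describes letters in a window, and binding was not measured.

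Per length of transcript and over all transcripts of a gene, Nfkbia, Rela and Tnfaip3 were the most abundant members and Rel the least abundant. The median over 8 libraries was 389 TPM (a length-scaled share of all transcripts) for Nfkbia, 98.4 TPM for Rela and 73.7 TPM for Tnfaip3. Nfkb2 (30.2 TPM), Nfkb1 (24.9), Nfkbid (22.0), Nfkbiz (19.9), Nfkbie (15.3) and Relb (15.0) followed, and Rel was at 2.62 TPM. The ranges of neighbours in this order overlapped, apart from those of Nfkbia and Rela and those of Relb and Rel. Nfkbia spanned 213 to 570 TPM and Rela 34.2 to 157 TPM, while Relb spanned 11.3 to 33.7 TPM and Rel 1.67 to 3.35 TPM. Protein-coding transcripts took 41.6 to 47.3% of Nfkbia TPM, 56.2 to 87.6% of Rela TPM and 17.3 to 54.4% of Nfkb1 TPM. For Tnfaip3 it was 96.2 to 99.2%. The order over coding transcripts alone was not computed and may differ.

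No member passed the test in any contrast. In edgeR's quasi-likelihood test with Benjamini-Hochberg adjustment, 0 of the 10 genes were called in each of the 3 contrasts, against a background of 0% of 14473 genes. At an unadjusted p below 0.05 Tnfaip3 was higher under NFAT5 than in eGFP (1 of 10, background 7.26%) and Nfkb1 higher under CA-RIT than in eGFP (1 of 10, background 6.44%). Between the vectors 0 of 10 passed, with a background of 1.13%. DESeq2 called 102, 60 and 1 genes in NFAT5 against eGFP, CA-RIT against eGFP and CA-RIT against NFAT5, and limma voom called 0 in each, with 911, 955 and 988 at an unadjusted p below 0.05. Neither called a member. The members' median log2 fold change was 0.02, -0.04 and -0.06, beside 0.08, 0.10 and 0.00 over all genes tested. The first 2 contrasts share their control libraries. The plot of member levels gives every library, and the plot of fold changes the 3 contrasts.

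**Figure D1:**
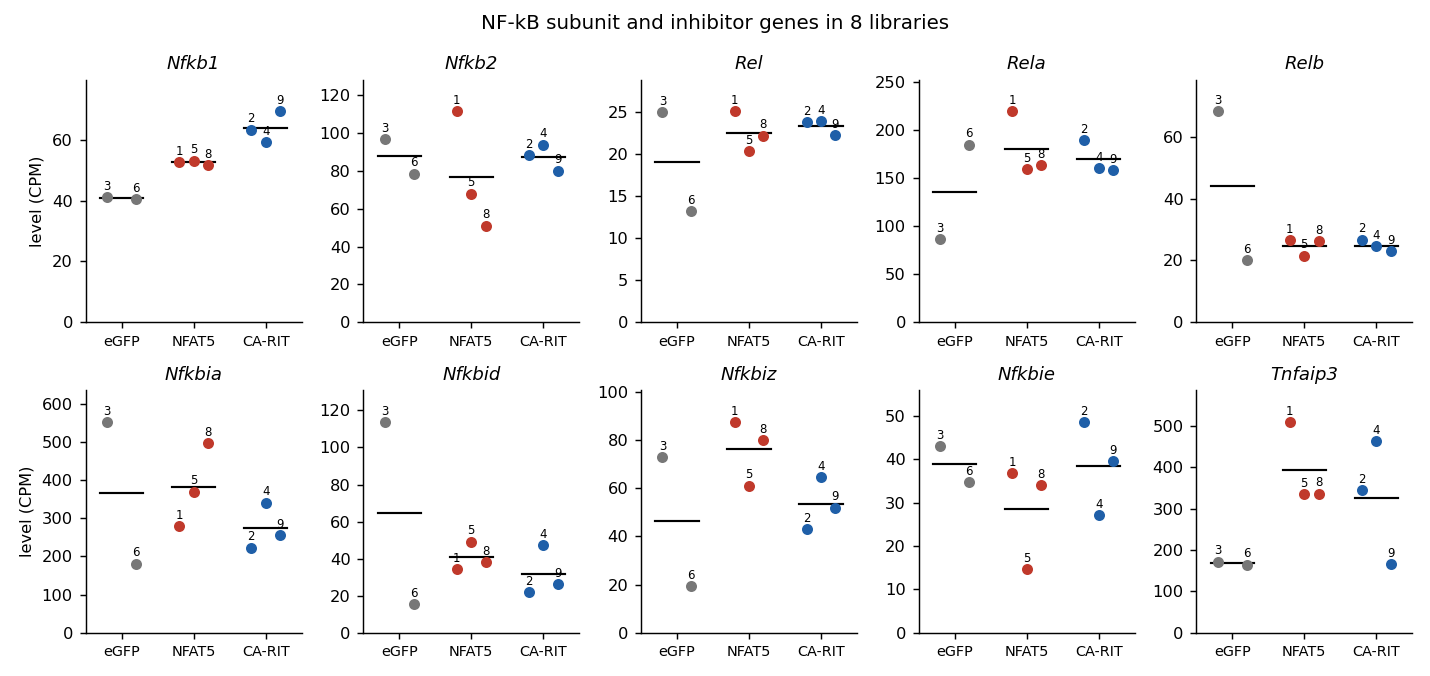
CPM of the 10 genes in each of the 8 libraries, with 1 point per library numbered by its title and a black line at each group mean. Nfkb1 is the panel in which the 3 groups do not overlap, and eGFP control 3 and 6 lie far apart for Relb, Nfkbid and Nfkbiz.

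**Figure D2:**
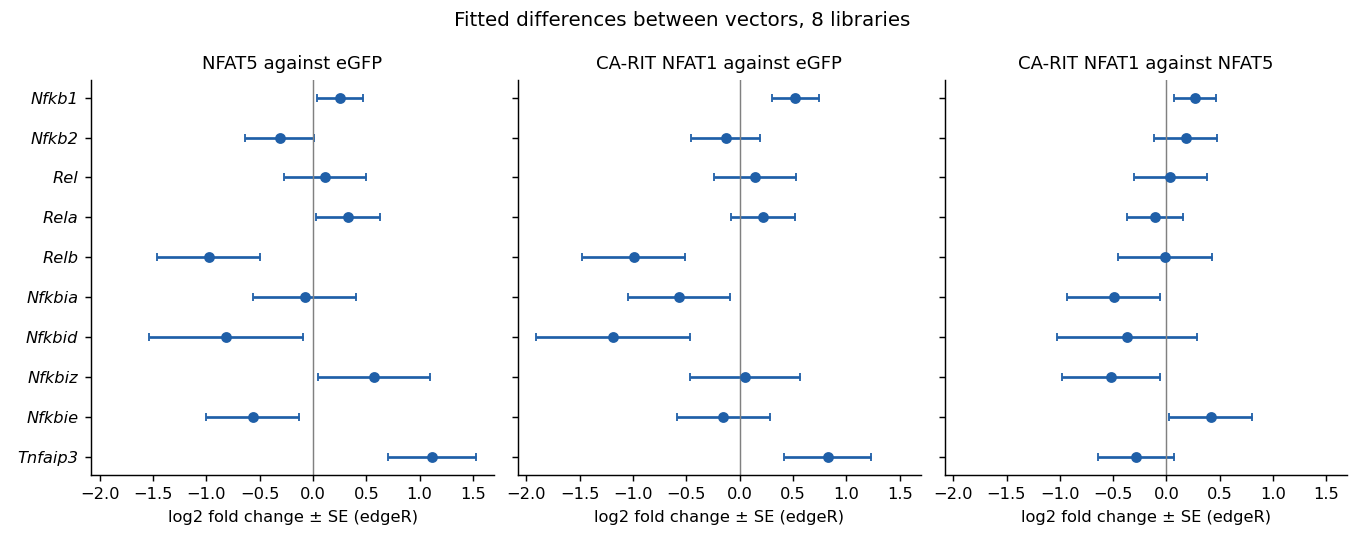
log2 fold change of each member with its standard error in 3 contrasts (edgeR, 8 libraries). Tnfaip3 has the largest positive value against eGFP (1.11 under NFAT5 and 0.83 under CA-RIT), and no member passed after adjustment.

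Nfkb1 (ENSMUSG00000028163.17, chr3:135584655-135691547, minus strand) encodes p105, the precursor of p50. It was at 41.2 and 40.5 CPM in eGFP control 3 and 6, at 52.7, 53.2 and 51.8 CPM in NFAT5 1, 5 and 8, and at 63.4, 59.1 and 69.4 CPM in CA-RIT NFAT1 2, 4 and 9. Every CA-RIT library was above every NFAT5 library, and every NFAT5 library above both controls, an order noticed after the values were seen. It also held in TPM, and 37 of 14473 genes (0.256%) had the same order without overlap. The log2 fold change against eGFP was 0.25 ± 0.22 (SE, edgeR adjusted p = 0.725) under NFAT5 and 0.52 ± 0.22 (unadjusted p = 0.0446, adjusted p = 0.679) under CA-RIT. CA-RIT against NFAT5 gave 0.27 ± 0.20 (adjusted p = 1). In bulk samples more cells with a message and more message per cell cannot be told apart.

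The order of Nfkb1 did not hold over its protein-coding transcripts alone. Their level was 8.0 and 28.8 CPM in the controls, 34.2, 31.4 and 27.9 CPM under NFAT5 and 26.2, 36.4 and 36.4 CPM under CA-RIT, so that eGFP control 6 lay within the ranges of both vectors and eGFP control 3 below them. Transcripts with a retained intron took 64.4% of Nfkb1 reads in eGFP control 3 and 3.42% in eGFP control 6. They took 8.06%, 0.691% and 10.8% under NFAT5 and 36.3%, 18.4% and 5.78% under CA-RIT. The split between transcripts is Salmon's estimate, and its part in the gene-level order was not tested.

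Rela (ENSMUSG00000024927.8, chr19:5637483-5648130, plus strand), the main transactivating subunit, was at 86.5 and 185 CPM in eGFP control 3 and 6. It was at 219, 159 and 163 CPM under NFAT5 and 189, 160 and 158 CPM under CA-RIT. eGFP control 3 was the lowest library, the other 7 lay between 158 and 219 CPM, and the groups overlapped. Log2 fold changes against eGFP were 0.32 ± 0.30 (edgeR adjusted p = 0.744) for NFAT5 and 0.22 ± 0.30 (adjusted p = 0.83) for CA-RIT, and -0.06 and -0.17 without eGFP control 3.

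Rel (ENSMUSG00000020275.9, chr11:23736847-23770970, minus strand) encodes c-Rel, a subunit with a large role in activated lymphocytes. It was at 24.9 and 13.2 CPM in the controls, 25.0, 20.3 and 22.2 CPM under NFAT5 and 23.8, 23.8 and 22.2 CPM under CA-RIT. eGFP control 6 was the low library, and eGFP control 3 lay within the NFAT5 range. Fitted log2 fold changes were 0.11 ± 0.39 (edgeR adjusted p = 0.941) and 0.14 ± 0.39 (adjusted p = 0.914), and without eGFP control 6 it was -0.32 and -0.28.

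Nfkb2 (ENSMUSG00000025225.15, chr19:46304320-46312385, plus strand) encodes p100, which holds RelB back until it is processed to p52. It was at 96.8 and 78.6 CPM in the controls, 112, 68.1 and 51.1 CPM under NFAT5 and 88.4, 93.9 and 80.2 CPM under CA-RIT. The CA-RIT libraries lay between the controls, and NFAT5 held both the highest and the lowest library. The log2 fold change was -0.31 ± 0.32 (edgeR adjusted p = 0.772) for NFAT5 and -0.13 ± 0.33 (adjusted p = 0.904) for CA-RIT, the latter 0.11 without eGFP control 3. Nfkb2 shares exon bases with AC114539.1 (6.21 to 21 CPM) and Psd (0 to 1.53 CPM) on the other strand, and without a stated strand setting their reads cannot be told apart.

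Relb (ENSMUSG00000002983.17, chr7:19606217-19629438, minus strand) encodes the partner of p52. It was at 68.3 CPM in eGFP control 3 and 20.2 CPM in eGFP control 6, at 26.5, 21.5 and 26.3 CPM under NFAT5 and at 26.8, 24.6 and 23.1 CPM under CA-RIT. Without eGFP control 3, all 7 libraries fall between 20.2 and 26.8 CPM. Against eGFP the log2 fold change was -0.98 ± 0.49 (edgeR adjusted p = 0.654) and -0.99 ± 0.48 (adjusted p = 0.679). It was 0.27 and 0.25 without eGFP control 3, and -1.63 and -1.64 without eGFP control 6, so the direction rests on which control is used. The summed level of dendritic cell and antigen presentation markers was also higher in eGFP control 3, though Itgax was lower there. Clec9a, Zbtb46 and Cd209a were at 0 in eGFP control 3, as they were in eGFP control 6. The part of dendritic cell and antigen presentation markers in the Relb value was not tested.

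As shares of the summed TPM of the 5 subunits, Rela took 53.2 to 66.3% in 7 of the 8 libraries and 29.9% in eGFP control 3. Relb took 29.5% there and 6.58 to 9.38% in the other 7. Rela took 63.5, 62.0 and 58.4% in the NFAT5 libraries and 55.0, 53.2 and 54.2% in the CA-RIT libraries. The 2 vector groups did not overlap in this share, which counts all transcripts, was noticed after the values were seen and was not tested. Protein-coding transcripts took 59.2, 56.2 and 73.8% of Rela TPM in NFAT5 1, 5 and 8. They took 75.8, 70.7 and 66.9% in CA-RIT NFAT1 2, 4 and 9. Shares over coding transcripts alone were not computed, so no difference between the vectors in subunit make-up is read here. Rel took 0.977 to 2.31% and Nfkb2 12.9 to 26.2%.

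**Figure D3:**
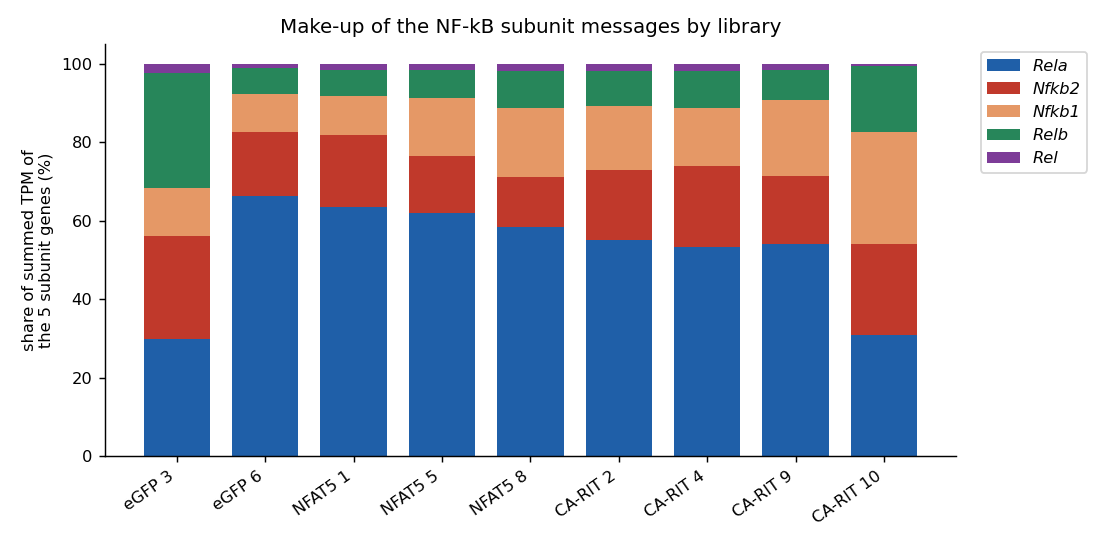
Share of the summed TPM of Nfkb1, Nfkb2, Rel, Rela and Relb over all their transcripts in each library, as stacked bars to 100%. Rela takes 53.2 to 66.3% in 7 of the 8 libraries compared, against 29.9% in eGFP control 3 and 30.9% in CA-RIT NFAT1 10.

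Nfkbia (ENSMUSG00000021025.8, chr12:55489410-55492647, minus strand) encodes IkB-alpha, the inhibitor resynthesised first after NF-kB activation. It was at 552 and 181 CPM in eGFP control 3 and 6, 279, 370 and 496 CPM under NFAT5 and 223, 341 and 256 CPM under CA-RIT. All 6 vector libraries lay between the controls. The log2 fold change was -0.08 ± 0.48 (edgeR adjusted p = 0.97) for NFAT5 and -0.57 ± 0.48 (adjusted p = 0.727) for CA-RIT. Without eGFP control 3 the values were 1.06 and 0.56, and without eGFP control 6 CA-RIT gave -1.19. A transcript with a retained intron took 30.3 to 35.2% of Nfkbia reads in the 8 libraries.

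Nfkbid (ENSMUSG00000036931.15, chr7:30421732-30428746, plus strand) encodes the nuclear protein IkBNS, which can act with p50 at target promoters. It was at 114 and 15.4 CPM in eGFP control 3 and 6, a ratio of 7.38. Under NFAT5 it was at 34.6, 49.2 and 38.3 CPM and under CA-RIT at 21.8, 47.1 and 26.3 CPM. The vector libraries again lay between the controls. On the log2 scale the fold change was -0.82 ± 0.72 (edgeR adjusted p = 0.732) and -1.19 ± 0.72 (adjusted p = 0.679). It was 1.38 and 1.01 without eGFP control 3, and -1.65 and -2.01 without eGFP control 6.

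Nfkbiz (ENSMUSG00000035356.17, chr16:55811375-55838899, minus strand) encodes the nuclear protein IkB-zeta, a coactivator of secondary response genes. It was at 73.0 and 19.5 CPM in the controls, 87.5, 61.1 and 79.9 CPM under NFAT5 and 43.2, 64.7 and 51.9 CPM under CA-RIT. eGFP control 6 was the lowest library, and eGFP control 3 lay within the NFAT5 range. Log2 fold changes of the vectors were 0.57 ± 0.52 (edgeR adjusted p = 0.741) and 0.05 ± 0.52 (adjusted p = 0.983). It was 1.94 and 1.42 without eGFP control 3, with adjusted p = 1 for both.

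Nfkbie (ENSMUSG00000023947.8, chr17:45555703-45563169, plus strand) encodes IkB-epsilon, an inhibitor of RelA and c-Rel dimers. It was at 42.9 and 34.7 CPM in the controls, 36.7, 14.6 and 34.1 CPM under NFAT5 and 48.5, 27.1 and 39.6 CPM under CA-RIT. NFAT5 5 was the low library and the groups overlapped. Against eGFP the values on the log2 scale were -0.57 ± 0.43 (edgeR adjusted p = 0.696) and -0.15 ± 0.44 (adjusted p = 0.92), and CA-RIT against NFAT5 gave 0.41 ± 0.39 (adjusted p = 1).

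Tnfaip3 (ENSMUSG00000019850.11, chr10:19000910-19015657, minus strand) encodes A20, a ubiquitin-editing enzyme that ends IKK signalling. It was at 172 and 165 CPM in eGFP control 3 and 6, a ratio of 1.04 between them. It was at 509, 336 and 336 CPM under NFAT5, all above both controls. Under CA-RIT it was at 346, 463 and 166 CPM, with CA-RIT NFAT1 9 at the level of the controls. Group means were 168 ± 5.09 (SD, n = 2), 394 ± 100 (n = 3) and 325 ± 150 CPM (n = 3). Tnfaip3 had a log2 fold change of 1.11 ± 0.41 for NFAT5 (edgeR unadjusted p = 0.0264, adjusted p = 0.654) and 0.83 ± 0.41 for CA-RIT (adjusted p = 0.679). CA-RIT against NFAT5 gave -0.29 ± 0.36 (adjusted p = 1), and 0.03 without CA-RIT NFAT1 9. Leaving out each library in turn gave 0.92 to 1.23 for NFAT5 and 0.45 to 1.14 for CA-RIT against eGFP.

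Counted over the 10 genes, Nfkb1 and Tnfaip3 were higher in every NFAT5 library than in both controls, and 0 were lower. The background of 14473 genes was 14.2% higher, 8.15% lower and 22.4% in either direction. Under CA-RIT Nfkb1 alone was higher than both controls, with 0 lower and a background of 14.2% higher, 6.67% lower and 20.9% in either direction. By TPM Nfkb2 joined it, making 2 of 10, with a background by TPM of 21.2% in either direction. With TMM-scaled CPM Nfkbie was also lower in every NFAT5 library than in both controls, making 3 of 10 there, with a background of 22% in either direction. Against NFAT5 Nfkb1 alone was higher and 0 were lower, with a background of 4.06%, 2.78% and 6.85%. Set against each control alone, NFAT5 libraries were all above eGFP control 6 for 7 of 10 genes (background 22.5%) and below it for 0 (background 21.6%). They were all above eGFP control 3 for 3 (background 44.5%) and below it for 4 (background 27.7%). Likewise CA-RIT libraries were all above eGFP control 6 for 8 of 10 genes (background 22.5%) and below it for 0 (background 19%). They were all above eGFP control 3 for 2 (background 46.2%) and below it for 6 (background 26.7%). The controls differed by more than 2-fold in 5 of the 10 genes, and in 48.7% of all genes tested.

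Correlations among members ran in both directions over the 8 libraries. The Pearson correlation of log2(CPM + 1) was 0.89 for Nfkbia with Nfkbid and 0.85 over the 7 libraries without eGFP control 3. For Rel with Nfkbiz it was 0.87 and 0.86, and for Nfkbid with Nfkbiz 0.70 and 0.83. For Relb with Nfkbid it was 0.78 and 0.27, so it rested on eGFP control 3. Rela ran against Relb at -0.84 and against Nfkbid at -0.80, and without eGFP control 3 these were 0.33 and -0.38. These libraries share depth and RNA content, and the values are given as a description. Among 8065 genes averaging 10 CPM or more, Suco (0.98), Gbp6 (0.97) and Csrnp1 (0.95) were most like Tnfaip3. Cebpg (0.96), Zbtb25 (0.96) and Atrx (0.93) were most like Nfkb1. Miip, Znhit1 and Otulin (0.99, 0.99 and 0.98) were most like Relb, and 0.89, 0.82 and 0.78 without eGFP control 3. Nek6 (0.97), Kti12 (0.94) and Dxo (0.94) were most like Nfkbid.

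Around the members, 77 pathway genes in 7 lists were followed, of which 76 passed the low-count filter. None passed the adjusted test. At an unadjusted p below 0.05, 2 were higher and 13 lower under NFAT5 than in eGFP, beside 3.25% and 4.01% of all genes. Under CA-RIT 3 were higher and 8 lower, beside 3.28% and 3.16%, and against NFAT5 2 were higher and 0 lower, beside 0.788% and 0.339%. The counts against eGFP rest on eGFP control 3 and 6, which differed by more than 2-fold in 48.7% of all genes tested. Without eGFP control 3 only eGFP control 6 remains, so no counts are read from that fit. The edgeR adjusted p of the genes named below was 0.654 for NFAT5 against eGFP, 0.679 for CA-RIT against eGFP and 1 between the vectors.

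Of the 10 genes of the IKK complex and the kinases above it 0 passed in any contrast, with Ikbkb at a mean of 93.6 CPM, Tbk1 at 58.0 CPM and Map3k7 at 56.4 CPM. Zc3h12a encodes Regnase-1, an RNase that degrades inflammatory messages. It was at 1.40 and 3.42 CPM in the controls, 16.9, 13.8 and 20.6 CPM under NFAT5 and 9.09, 21.6 and 7.98 CPM under CA-RIT. All vector libraries were above both controls, with log2 fold changes of 2.74 ± 0.68 (edgeR unadjusted p = 0.00362) and 2.33 ± 0.67 (unadjusted p = 0.00789). Of the 13 ubiquitin ligases and adaptors, Traf2, an adaptor of TNF receptors, was lower under NFAT5 at -0.89 ± 0.28, with 66.8 ± 11.3 CPM (SD, n = 3) against 114 ± 16.5 CPM (n = 2).

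Of the 3 further IkB family genes, Nfkbib, encoding IkB-beta, was at 82.9 ± 10.3 CPM (SD, n = 3) under NFAT5 and 123 ± 44.2 CPM (n = 2) in eGFP, with a log2 fold change of -0.69 ± 0.29 and overlapping groups. Bcl3, an IkB protein that binds p50 and p52 in the nucleus, was at 66.5, 58.3 and 87.7 CPM under CA-RIT and 125 and 126 CPM in the controls, with a log2 fold change of -0.95 ± 0.41. The 3 CA-RIT libraries were all below both controls. Under NFAT5 Bcl3 was at 118, 42.2 and 54.1 CPM. Of the 11 deubiquitinases and A20 partners, Otulin, which removes linear ubiquitin, was at -0.78 ± 0.33 under CA-RIT with overlapping groups.

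Of 9 TNF receptors of T cells, Tnfrsf4 (-2.93 ± 1.05), Tnfrsf9 (-1.85 ± 0.55) and Tnfrsf18 (-1.18 ± 0.38), which encode the costimulators OX40, 4-1BB and GITR, passed the unadjusted threshold under NFAT5. Tnfrsf18 also did under CA-RIT (-0.94 ± 0.38). Tnfrsf9 was at 1320 and 551 CPM in eGFP control 3 and 6 and at 510, 181 and 170 CPM under NFAT5. Tnfrsf4 was at 255 and 44.3 CPM in the same controls and at 50.2, 3.78 and 12.6 CPM under NFAT5, with overlapping groups. Tnfrsf18 was at 264 and 135 CPM in the controls and at 137, 77.6 and 76.3 CPM under NFAT5, also overlapping. Ltbr, the lymphotoxin beta receptor, had 0 reads in both controls and all NFAT5 libraries and 17 to 29 reads in each CA-RIT library. Against a floor of 3 reads over the group it was at least 16.5-fold higher than in eGFP and at least 17.9-fold higher than under NFAT5. Ltbr is known mainly from myeloid and stromal cells. Of 15 macrophage and monocyte markers, 12 had a higher fitted level under CA-RIT than under NFAT5, with a median log2 fold change of 0.82, and 9 of 15 a higher one than in eGFP, with a median of 0.20. Their summed level was 101 to 265 CPM under NFAT5, 227 and 250 CPM in the controls, and 194 and 254 CPM in CA-RIT NFAT1 4 and 9, and highest in CA-RIT NFAT1 2. Ltbr had 17, 24 and 29 reads in CA-RIT NFAT1 2, 4 and 9, and 0 reads in CA-RIT NFAT1 10, where the same markers summed to 5510 CPM. Which cells the Ltbr reads came from was not tested.

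Of 24 target genes known to carry kappaB sites 23 were tested. Under NFAT5 18 had a lower and 5 a higher fitted level than in eGFP, and under CA-RIT 19 and 4. Of all 14473 genes tested, 6632 were lower and 7796 higher under NFAT5, and 6555 and 7896 under CA-RIT. The median log2 fold changes were -0.65 and -0.49, beside 0.08 and 0.10 over all genes tested. At an unadjusted p below 0.05, 8 were lower and 1 higher under NFAT5, beside 4.01% and 3.25% of all genes. Under CA-RIT 5 were lower and 1 higher, beside 3.16% and 3.28%. Without eGFP control 3 the medians were -0.01 and -0.10. Ier3, a stress-induced survival gene, was at -1.42 ± 0.49 under NFAT5 and -1.28 ± 0.49 under CA-RIT, and Bcl2a1d, an anti-apoptotic gene of a family with near-identical copies, at -1.19 ± 0.47 and -1.23 ± 0.47. Tnfsf14, encoding the cytokine LIGHT, was at 37.1 CPM in eGFP control 3 and 2.11 to 7.52 CPM in the other 7 libraries. Its log2 fold change was -2.18 ± 0.93 under NFAT5 and -2.85 ± 0.94 under CA-RIT. Ltb, encoding lymphotoxin beta, was at -0.70 ± 0.30 under NFAT5. Ccl3 (-3.16 and -2.47), Ccl4 (-2.94 and -2.44) and Csf2 (-2.62, NFAT5 alone) were also lower, and Tnf (2.68 and 1.75) the higher one. In eGFP control 3 and 6 Ccl3 was at 1570 and 404 CPM and Ccl4 at 2850 and 652 CPM. Every vector library was below both controls for Ccl3 and Ccl4.

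Il2ra, the high-affinity chain of the interleukin-2 receptor, was the other lower target under NFAT5. It was at 29.9, 20.8 and 25.8 CPM under NFAT5, 49.0, 47.4 and 86.3 CPM under CA-RIT and 79.5 and 32.7 CPM in eGFP control 3 and 6. Every NFAT5 library was below the other 5 of the 8. The log2 fold change was -1.27 ± 0.45 for NFAT5 against eGFP and 1.24 ± 0.41 for CA-RIT against NFAT5 (edgeR unadjusted p = 0.016, adjusted p = 1).

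**Figure D4:**
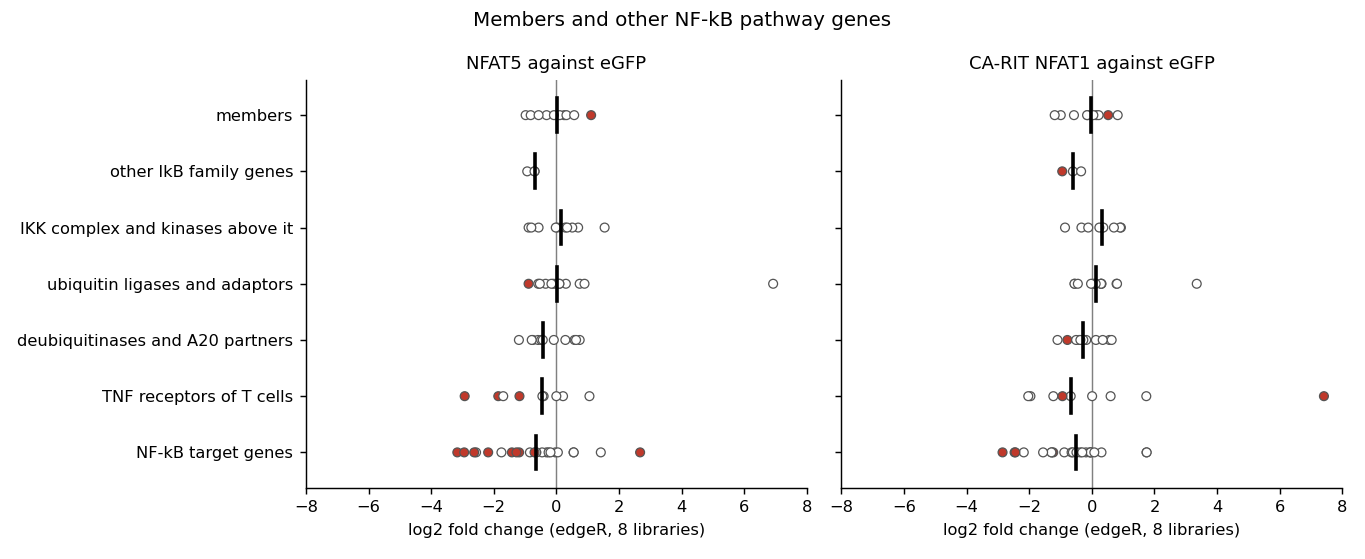
log2 fold change of the tested members and of 6 pathway lists in NFAT5 and in CA-RIT NFAT1 against eGFP (edgeR, 8 libraries), with red points at an unadjusted p below 0.05 and a black bar at each list's median. The kappaB target list has medians of -0.65 and -0.49, and the fitted values of genes at 0 reads in a group, such as Ltbr, depend on the prior count of the fit.

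In CA-RIT NFAT1 10, left out of the comparisons, 8 of the 10 members lay outside the range of the other 8 libraries. Nfkb1 (221 CPM), Nfkb2 (209), Relb (99.8) and Nfkbie (118) were above all 8 other libraries, by 4.17, 2.47, 3.92 and 3.29 times their median. Nfkbia (54.9 CPM), Nfkbid (2.62), Rel (12.9) and Tnfaip3 (9.20) were below all 8, Tnfaip3 by 36.5 times and Nfkbid by 13.9 times. Rela (186 CPM) and Nfkbiz (20.1) lay within the range of the 8. Of all genes tested 30.4% were above all 8 libraries there and 25.7% below, so many genes lay outside, and nothing particular to the members is read from their 4 and 4. Macrophage and monocyte markers summed to 5510 CPM there, with reads in 15 of 15 genes, 10.8 times the highest of the 8 libraries. Mast cell and P511 markers had reads in 5 of 10, with Fcer1a, Ms4a2, Tpsb2, Mcpt4 and Hdc at 0. Their part in these levels was not tested.

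**Figure D5:**
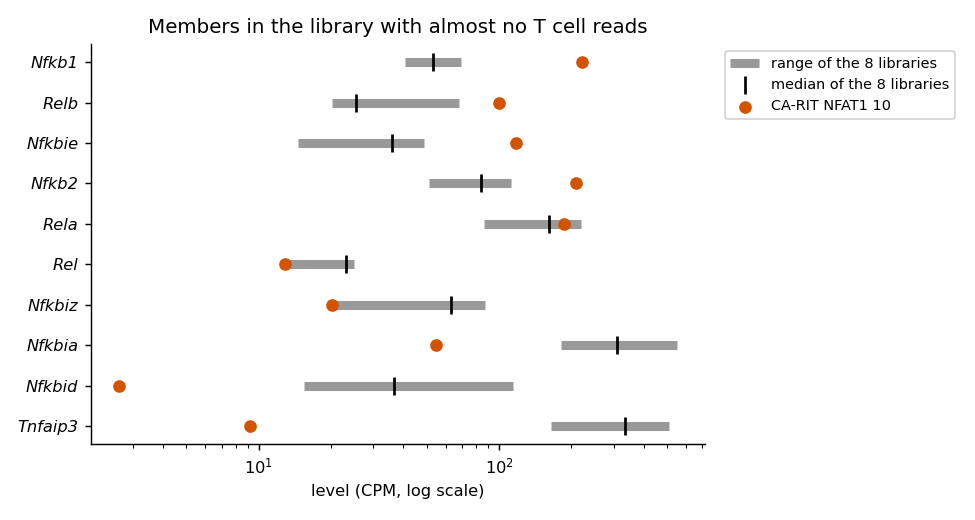
CPM of each member on a log axis in CA-RIT NFAT1 10, beside the range and median of the 8 libraries compared. Of the 10 genes 4 lie above the range, 4 below it and 2 within it, beside 30.4% of all genes tested above and 25.7% below. Of all genes tested 38% were above both controls in this library.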

How the data were processed

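RNA of CD8 cells sorted from tumours was sequenced in 10 libraries of 3 vector groups, named by the treatment label. The deposited estimated counts and TPM come per transcript from Salmon 0.14.1, and the builds mm10 and GRCm38.p6 are named, per the submitters' processing notes. The deposited lengths and effective lengths, a quantity other than expression, are named per the file headers and served for length offsets. Strand settings and mouse numbers are not given in these sources. Of 140919 transcripts 139966 matched GENCODE M21 (99.9% with the same length), and 953 were left out, at most 0.292% of reads. Counts were summed over 54337 genes and rounded. CPM divide by the reads on genes.

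The test was edgeR 4.0.16 (R 4.3.3) by quasi-likelihood, with TMM scaling, the default filter and 1 dispersion trend over 8 libraries, leaving out eGFP control 7 for depth and CA-RIT NFAT1 10 for its low T cell markers. Adjustment was Benjamini-Hochberg at 0.05 over all genes. Alternatives were DESeq2 1.42.0, limma 3.58.1 voom, other scalings, filters, library sets, length offsets, TPM, and leaving out each library, where a lone control was taken to vary like the other groups. Overlap of groups under TMM-scaled CPM, and the values of target genes without single libraries, were added after seeing the data.

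Members and lists were chosen with earlier results of these data known. All members are named. Of the pathway lists, genes with an unadjusted p below 0.05 in any contrast are named, or else up to 3 of the most abundant. For the 4 members with the smallest p, the 3 genes most correlated are named. Besides the 7 pathway lists, 6 marker lists were summed. Neutrophil markers summed to 0.809 to 4.54 CPM, and B cell, NK cell and regulatory T cell markers to 62.9 to 121 CPM, in the 8 libraries. Promoter sequences are from RefSeq. Some pathway results are not reported here.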

Additional observations from a re-analysis of the deposited data

Results flagged for a closer look

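CA-RIT NFAT1 10 was far from the other CA-RIT libraries in 4 members, by its gap to the nearest library relative to the range of the group (Dixon's test for 4 samples). These were Nfkb1 at 221 CPM, Nfkb2 at 209 CPM, Rel at 12.9 CPM and Relb at 99.8 CPM. Chance alone marks about 1 in 20 groups in this way, and 10 members were looked at in the same libraries.

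The same library was not used in the comparisons, and 5 members were higher there than in eGFP control 3 and 6, beside 38% of all genes tested. These were Nfkb1 at 221 CPM, Nfkb2 at 209 CPM, Rela at 186 CPM, Relb at 99.8 CPM and Nfkbie at 118 CPM. Markers of mast cells and P511, at 5090 CPM, and of macrophages, at 5510 CPM, were higher in it than in the other libraries, and their part in these levels was not tested.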

How the results depend on the processing

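The comparisons with eGFP rest on 2 controls that differed, and the mean of a group of 2 or 3 libraries limits what they can show. Alternatives kept the 8 libraries, added 1 or 2, or fitted only the compared groups. Of their 360 values for members, 343 kept their direction and their side of the threshold and 17 turned direction. Of 240 values with a library left out 211 kept both, 5 passed the threshold and 24 turned direction. The cause was not tested. DESeq2 called 102, 60 and 1 genes in NFAT5 against eGFP, CA-RIT against eGFP and CA-RIT against NFAT5, and leaving out each library gave 0 to 3294, 0 to 3410 and 0 to 0. The highest counts came without eGFP control 6, where only eGFP control 3 remained and all genes tested had a median of 0.45 and 0.49 on the log2 scale. No call of a member is read from that fit. By TPM 2 members did not overlap between CA-RIT and eGFP, beside 21.2% of all genes, and Nfkb1 gave a log2 ratio of group means of 0.69 for NFAT5 and 1.01 for CA-RIT. Adding the left-out libraries changed the number of target genes lower at an unadjusted p below 0.05 from 8 to 1 under NFAT5 and from 5 to 1 under CA-RIT. Over all genes tested, the share at this threshold in either direction was 7.26% and 6.44% with 8 libraries. With all 10 libraries it was 2.71% and 4.42%.

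For NFAT5 against eGFP, Nfkbia turned to a log2 fold change of 0.21 with all 10 libraries, 0.11 with eGFP control 7 added and 0.078 by voom. For CA-RIT against eGFP with all 10 libraries, Nfkb2 turned to 0.33, Nfkbiz to -0.14 and Nfkbie to 0.44. With CA-RIT NFAT1 10 alone added, Nfkb2 was 0.21, Rel -0.049, Nfkbiz -0.21 and Nfkbie 0.35, and upper-quartile scaling gave Nfkbiz -0.048. For CA-RIT against NFAT5, Rel was -0.17 with all 10 libraries and -0.17 with CA-RIT NFAT1 10 added. Relb was 0.69 and 0.67 in these fits, 0.053 by voom and 0.13 with length offsets.

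Leaving out each library in turn gave these ranges of log2 fold change for members that turned direction. For NFAT5 against eGFP they were -0.32 to 0.74 for Rel, -0.062 to 0.89 for Rela, -1.63 to 0.27 for Relb, -0.69 to 1.06 for Nfkbia, -1.65 to 1.38 for Nfkbid and -0.11 to 1.94 for Nfkbiz. For CA-RIT against eGFP they were -0.33 to 0.11 for Nfkb2, -0.28 to 0.78 for Rel, -0.17 to 0.79 for Rela, -1.64 to 0.25 for Relb, -1.19 to 0.56 for Nfkbia, -2.01 to 1.01 for Nfkbid, -0.63 to 1.42 for Nfkbiz and -0.35 to 0.093 for Nfkbie. For CA-RIT against NFAT5 they were -0.037 to 0.53 for Nfkb2, -0.024 to 0.11 for Rel, -0.18 to 0.045 for Rela, -0.10 to 0.042 for Relb and -0.66 to 0.027 for Tnfaip3. No paired analysis was possible because the numbers in the titles run from 1 to 10 and no number is shared between groups.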
